A study of Homo sapiens with 6 samples.

Results

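The genes described here are ESM1 and 6 genes of the vascular endothelial growth factor (VEGF) axis, namely VEGFA, VEGFB, VEGFC, NRP1, NRP2 and ANGPTL4. They were chosen by name from the gene symbols of the deposited table, with their difference between the groups already in view, and all 7 were found among its 30015 genes. The study asked how loss of EZH2 changes mucosal melanoma cells, and sequenced poly-A mRNA of HMV-II, an established human mucosal melanoma line of vaginal origin. The 3 control libraries (Vector, labelled wild type) came from cells carrying a scrambled shRNA. The 3 knockdown libraries (shEZH2) came from cells carrying an shRNA against EZH2, the enzyme of Polycomb complex 2 that methylates lysine 27 of histone H3. In both groups the shRNA was delivered by lentivirus, stable lines were selected with puromycin, and no drug treatment followed. The study made a pair of EZH2 shRNAs, and the table heads its knockdown group sh1, so the values rest on a single cell line and a single hairpin. Nothing states that the libraries of a group came from separate cultures, so the spread between them may be technical, and the p-values given measure only that spread.

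VEGF ligands are secreted proteins that act on receptor tyrosine kinases, chiefly of endothelial cells, to drive the growth of blood and lymphatic vessels. VEGF-A is the main signal for blood vessel sprouting, VEGF-C the main signal for lymphatic growth, and the neuropilins NRP1 and NRP2 are co-receptors that bind both these ligands and class 3 semaphorins. ESM1 (endocan) is a secreted dermatan sulfate proteoglycan known as a gene of endothelial tip cells, and ANGPTL4 is a secreted inhibitor of lipoprotein lipase that is induced by low oxygen and by PPAR receptors.

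The libraries held 13400290 to 19128939 reads assigned to genes. EZH2 itself measured 483, 437 and 552 normalized counts in the Vector libraries and 237, 247 and 225 in the shEZH2 libraries, and its log2 fold change was -1.04 ± 0.14 (SE, n = 3 against 3; limma, Benjamini-Hochberg adjusted p = 0.014). Vector replicate 2, the shallowest library, stood apart with gene length. Against the mean of the other Vector libraries, its median log2 deviation ran from -0.54 in the shortest of 5 length classes of genes to 0.42 in the longest, so values of the members are given with and without it. The melanocyte markers were all present, with summed levels of 75515 to 100744 normalized counts in Vector and 78898 to 85355 in shEZH2.

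ESM1 and VEGFC were the members with a clearly higher level in every shEZH2 library, and their promoters are shown for that reason, since EZH2 is known to act chiefly at CpG-rich promoters. Each sequence holds the 250 bases upstream of the RefSeq transcription start (GRCh38.p14), read 5′ to 3′ on the strand of the gene. The ESM1 sequence is chr5:54985594-54985843 on the minus strand, and its start lies inside the wider span that the deposited table gives for the gene. That span has its 5′ end at base 55022671, and the sequence upstream of that end was not examined. The VEGFC sequence is chr4:176792923-176793172 on the minus strand. Capitals mark matches, on either strand, to the GC box GGGCGG bound by SP and KLF factors or to the hypoxia response core ACGTG.
ESM1: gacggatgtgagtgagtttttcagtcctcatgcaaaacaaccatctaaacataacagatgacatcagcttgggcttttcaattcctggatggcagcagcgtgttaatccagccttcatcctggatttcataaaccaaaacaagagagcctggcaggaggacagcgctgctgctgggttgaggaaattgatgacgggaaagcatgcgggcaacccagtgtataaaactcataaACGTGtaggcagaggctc
VEGFC: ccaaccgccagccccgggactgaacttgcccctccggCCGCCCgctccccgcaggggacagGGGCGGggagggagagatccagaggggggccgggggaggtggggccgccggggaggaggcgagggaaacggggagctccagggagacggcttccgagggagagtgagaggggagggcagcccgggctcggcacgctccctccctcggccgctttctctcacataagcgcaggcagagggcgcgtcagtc

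The promoters of the 2 members differed in base composition. The ESM1 window had a GC content of 47.6% and 6 CpG dinucleotides, and 38.1% of the 35114 RefSeq promoters held fewer. The VEGFC window had a GC content of 74% and 22 CpG dinucleotides, and 72.0% of promoters held fewer. The median promoter held 11 CpG dinucleotides at a GC content of 58%. Among the other members with an entry, the windows of VEGFB, NRP2 and ANGPTL4 held 30, 29 and 16 CpG dinucleotides, so ESM1 was the single member of the 5 below the median. The entries of VEGFA and NRP1 were not matched.

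The ESM1 window held no GC box and 1 match to ACGTG, at bases -18 to -14 from the start. The VEGFC window held 2 GC boxes, at bases -213 to -208 and -189 to -184, and no ACGTG. Neither window held the TEAD motif GGAATG or the AP-1 motif TGACTCA. The GC box was present in 42.6% of all promoter windows of this length, ACGTG in 18.5%, GGAATG in 11.9% and TGACTCA in 4.20%, each searched on both strands. The matches in these windows did not overlap each other, and a match describes letters only, since factor binding and histone methylation were not analysed here.

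Genes averaging 10 or more normalized counts were tested with limma on log2(normalized count + 1), 15251 in all. A gene was called at an unadjusted p under 0.05 and a change of more than 1.5-fold in either direction, the threshold of the study. It called 14.6% of genes, 7.55% higher and 7.07% lower in shEZH2. The 3 values of each group did not overlap for 34.8% of genes, and 4.09% had an adjusted p under 0.05. Of the members, 6 were tested, with 2 past the threshold on the higher side (ESM1 and VEGFC), 1 on the lower side (NRP1) and 3 not past it (VEGFA, VEGFB and NRP2). ANGPTL4 was under the minimum. The groups did not overlap for the same 3 genes that passed the threshold. Because the members were chosen on this contrast, these counts are a description and nothing is read from them. Over all tested genes the log2 fold change had a median of 0.04.

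ESM1 (ENSG00000164283, chr5:54977864-55022671, minus strand, GRCh38 coordinates of the table) measured 22.0, 10.5 and 25.5 normalized counts in the Vector libraries and 267, 291 and 296 in the shEZH2 libraries. Every shEZH2 library was above every Vector library, by a wide margin. The means were 19.3 ± 7.83 and 284 ± 15.6 (SD, n = 3 each), a ratio of 14.7, and the log2 fold change was 3.90 ± 0.32 (SE). It held position 2 from the highest log2 fold change among the 15251 genes tested.

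The Vector level of ESM1 rested on few reads. The libraries held 21, 9 and 25 ESM1 reads, with exact 95% Poisson intervals of 13.0 to 32.1, 4.12 to 17.1 and 16.2 to 36.9, which cover counting error only. The interval of replicate 2 overlapped those of the other libraries. The shEZH2 libraries held 280, 364 and 310 reads. Summed over a group, 55 reads (interval 41.4 to 71.6) stood against 954 (894 to 1017). Without Vector replicate 2 the log2 fold change was 3.53 ± 0.17.

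ESM1 is mainly known from endothelium, and the markers of endothelial cells were near the detection limit in both groups. Of 8 such markers, 7 were in the table and 5 of these averaged under 10 normalized counts. Their summed level was 42.8 to 104 normalized counts in Vector and 46.7 to 51.6 in shEZH2, with overlap, and VWF had the highest level among them. PECAM1, a defining endothelial surface protein, measured 5.23, 0 and 1.02 normalized counts in Vector and 0.952, 3.19 and 0.955 in shEZH2. None of these markers was at 0 in every library, and of the 2 tested none was called. Leukocyte markers summed to 9.16 to 23.3 normalized counts in Vector and 11.5 to 18.4 in shEZH2, and epithelial markers to 1309 to 1722 and 1570 to 1678. Fibroblast markers summed to 176 to 246 in Vector and 251 to 314 in shEZH2, which did not overlap. Of these 6 markers 2 were tested (named after their values were seen), and LUM, a matrix proteoglycan, was higher (148 ± 24.7 and 247 ± 33.9 normalized counts, SD) while COL1A2, a collagen chain, was lower (65.5 ± 10.9 and 36.9 ± 9.77), and the other 4 averaged under 10. Their part in the difference of ESM1 was not tested. In bulk libraries, fewer cells that express a gene and less RNA of it per cell cannot be told apart.

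VEGFC (ENSG00000150630, chr4:176683538-176792727, minus strand) was the single VEGF ligand past the threshold on the higher side. It measured 48.1, 18.6 and 43.8 normalized counts in the Vector libraries and 97.1, 110 and 104 in the shEZH2 libraries. All shEZH2 values were above all Vector values, and Vector replicate 2 was the lowest library. The means were 36.8 ± 15.9 and 104 ± 6.54 (SD, n = 3 each), a ratio of 2.82, and the log2 fold change was 1.58 ± 0.35 (SE). The difference rested on 105 reads in the Vector libraries and 349 in the shEZH2 libraries. Without Vector replicate 2 the log2 fold change was 1.16 ± 0.19.

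VEGFA (ENSG00000112715, chr6:43770184-43786487, plus strand) measured 3651, 2615 and 3730 normalized counts in Vector and 2661, 2251 and 2436 in shEZH2. The groups overlapped because Vector replicate 2 lay below shEZH2 replicate 1, while the other Vector libraries were above all shEZH2 libraries. The means were 3332 ± 622 and 2449 ± 205 (SD, n = 3 each), with a log2 fold change of -0.43 ± 0.18 (SE), which did not pass the threshold. Without Vector replicate 2 it was -0.59 ± 0.10. With the trend against gene length removed from each library it was -0.17 ± 0.28. For VEGFA, removing the trend moved Vector replicate 2 from -0.50 to -1.03 on the log2 scale, against the mean of the other Vector libraries. It thus set that library further apart for this gene, and the SE grew. VEGFA passed the threshold without Vector replicate 2 and in none of the 15 other alternatives run.

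VEGFB (ENSG00000173511, chr11:64234538-64238793, plus strand), a ligand of VEGF receptor 1 with a weaker part in vessel growth, measured 1624, 1259 and 1454 normalized counts in Vector and 1905, 1602 and 1649 in shEZH2. Vector replicate 1 lay between the shEZH2 libraries, so the groups overlapped. The means were 1445 ± 183 and 1719 ± 163 (SD, n = 3 each), and the log2 fold change was 0.25 ± 0.15 (SE). It was 0.16 ± 0.11 without Vector replicate 2 and 0.018 ± 0.13 with the length trend removed.

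NRP1 (ENSG00000099250, chr10:33177492-33336262, minus strand), the neuropilin that pairs chiefly with VEGF receptor 2 in arteries and in sprouting, measured 4691, 6054 and 4531 normalized counts in Vector and 1832, 2045 and 2158 in shEZH2. No shEZH2 library reached the lowest Vector library. The means were 5092 ± 837 and 2012 ± 165 (SD, n = 3 each), so the level was 2.53-fold lower, and the log2 fold change was -1.33 ± 0.16 (SE). It was -1.20 ± 0.10 without Vector replicate 2. A pair of annotated genes overlaps NRP1, each with a mean under 3 normalized counts.

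NRP2 (ENSG00000118257, chr2:205681990-205798133, plus strand), the neuropilin that pairs chiefly with VEGF receptor 3 in lymphatic vessels, measured 4561, 7245 and 4515 normalized counts in Vector and 3871, 4321 and 4807 in shEZH2. The groups overlapped, and Vector replicate 2 was the highest library. The means were 5440 ± 1563 and 4333 ± 468 (SD, n = 3 each), with a log2 fold change of -0.30 ± 0.21 (SE). Without Vector replicate 2 it was -0.07 ± 0.10, so most of the difference in NRP2 came with that library.

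ANGPTL4 (ENSG00000167772, chr19:8363289-8374373, plus strand) was near the detection limit. It measured 5.23, 9.31 and 1.02 normalized counts in Vector and 5.71, 2.40 and 2.86 in shEZH2, from 14 and 12 reads in all, with exact 95% Poisson intervals of 7.65 to 23.5 and 6.20 to 21.0 reads. The groups overlapped. Fitted with no minimum, its log2 fold change was -0.19 ± 0.69 (SE), and without Vector replicate 2 the sign turned, to 0.33 ± 0.66. A difference was not detectable at this depth. It shares 1 base with the antisense gene RAB11B-AS1.

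**Figure D1:**
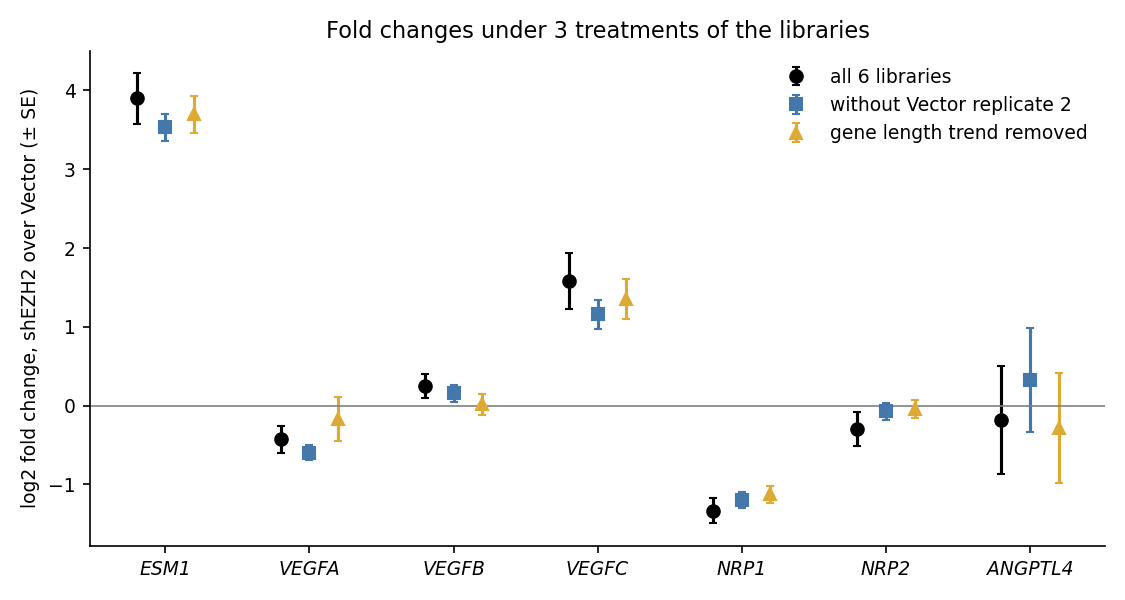
Log2 fold change (shEZH2 over Vector, ± SE) of each member over all 6 libraries, without Vector replicate 2 and with the gene length trend removed. ESM1 stays between 3.53 and 3.90, VEGFC between 1.16 and 1.58 and NRP1 between -1.33 and -1.13, while VEGFA, VEGFB and NRP2 lie closer to 0 and ANGPTL4 has wide errors.

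Levels of different genes were set side by side as normalized counts per kb of the gene length in the table. A shorter transcript in these cells would give a higher level on this scale. The order depends on these lengths, which are 14431 bases for VEGFA and 1545 for VEGFB. Before the division, VEGFA was above VEGFB in every library. The means were 3332 against 1445 normalized counts in Vector and 2449 against 1719 in shEZH2. In Vector the order ran from VEGFB at 936 ± 118 (SD, n = 3) through NRP1 at 442 ± 72.7, NRP2 at 392 ± 112, VEGFA at 231 ± 43.1, VEGFC at 15.2 ± 6.58 and ESM1 at 7.16 ± 2.91 to ANGPTL4 at 2.09 ± 1.67 normalized counts per kb. The ranges of NRP1 and NRP2 overlapped, as did those of VEGFC and ESM1, through Vector replicate 2, although within each Vector library NRP1 was above NRP2 and VEGFC above ESM1. In shEZH2 the order was VEGFB at 1112 ± 106, NRP2 at 312 ± 33.7, NRP1 at 175 ± 14.4, VEGFA at 170 ± 14.2, ESM1 at 106 ± 5.81, VEGFC at 42.9 ± 2.70 and ANGPTL4 at 1.47 ± 0.723, and only the neighbours NRP1 and VEGFA overlapped. ESM1 thus stood above VEGFC in every shEZH2 library. Among all genes tested, the level of ESM1 per kb moved from percentile 10.2 in Vector to 60.5 in shEZH2, that of VEGFC from 19.7 to 38.7 and that of NRP1 from 90.9 to 73.3. VEGFB stayed near the top, at percentiles 96.4 and 96.8.

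The shares of the 3 VEGF ligands were apart between the groups on the deposited scale. Of their summed level per kb, VEGFA made up 19.1%, 18.1% and 21.2% in the Vector libraries and 12.7%, 12.6% and 13.2% in the shEZH2 libraries. These shares did not overlap, although the VEGFA levels themselves did. VEGFC made up 1.5%, 0.767% and 1.49% in Vector and 2.75%, 3.68% and 3.36% in shEZH2, again with no overlap. VEGFA (14431 bases) and VEGFB (1545 bases) lie far apart in gene length, so the size of their shares depends on the lengths used. The gap between their fold changes depends on the scale as well. The log2 fold change of VEGFA minus that of VEGFB was -0.68 over all libraries and -0.75 without Vector replicate 2, but -0.18 with the gene length trend removed. VEGFC minus VEGFB was 1.32, 1.00 and 1.34 in the same settings, chosen after seeing the data. Removing the trend moved Vector replicate 2, against the mean of the other Vector libraries, from -0.50 to -1.03 for VEGFA. For VEGFB it moved that library from -0.29 to 0.36. The value of -0.18 thus depends on how the adjustment treats that library. VEGFB held the remainder of the sum, 79.3 ± 1.95% in Vector and 83.9 ± 0.601% in shEZH2 (SD, n = 3 each). The sum of the 3 ligands was 1182 ± 163 and 1325 ± 117 normalized counts per kb, with overlap. Its direction depends on the lengths too. Before the division, the mean of VEGFA was 3332 in Vector and 2449 in shEZH2. That of VEGFB was 1445 and 1719, and that of VEGFC 36.8 and 104.

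The ratio of NRP2 to NRP1 per kb was 0.806, 0.992 and 0.826 in Vector and 1.75, 1.75 and 1.85 in shEZH2. Per kb, NRP1 was thus the higher neuropilin in every Vector library, narrowly in replicate 2, and NRP2 in every shEZH2 library. Before the division by length, NRP2 was the higher in Vector replicate 2, at 7245 against 6054 normalized counts. NRP1 made up 53.4 ± 2.83% of the neuropilin sum in Vector and 35.9 ± 0.703% in shEZH2 (SD, n = 3 each), and that sum was 833 ± 185 and 486 ± 47.9 normalized counts per kb. Vector replicate 2, high in both neuropilins, kept a ratio on the Vector side. The log2 fold change of NRP2 minus that of NRP1 was 1.03 over all libraries, 1.13 without that library and 1.08 with the gene length trend removed. These shares use the same contrast as the choice of the members and carry no test.

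**Figure D2:**
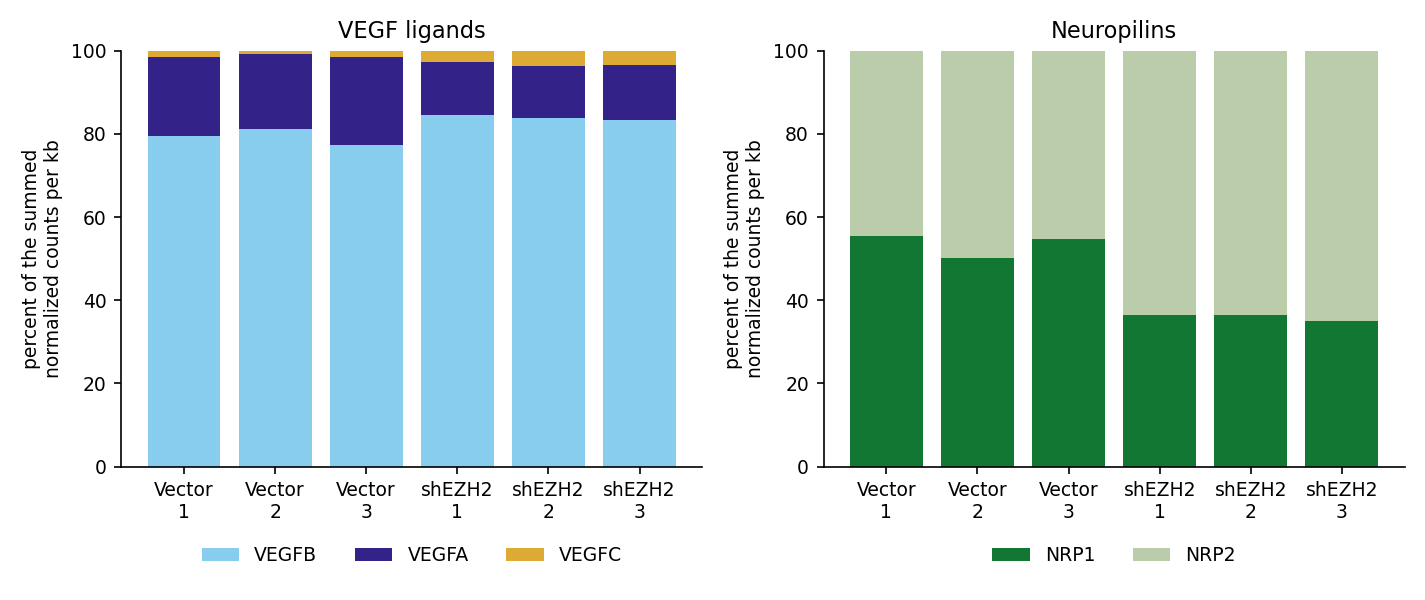
Stacked bars for each library with the percent of the summed normalized counts per kb held by each of the 3 VEGF ligands and by each neuropilin. The VEGFA share lies at 18.1% to 21.2% in Vector and 12.6% to 13.2% in shEZH2, and the NRP1 share at 50.2% to 55.4% and 35.1% to 36.3%.

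The other ligands and the receptors of the family were measured at low levels. VEGFD, a further lymphatic growth factor, measured 24.1, 48.9 and 35.6 normalized counts in Vector and 7.62, 11.2 and 10.5 in shEZH2, with no overlap, from 100 and 33 reads. It fell, with a log2 fold change of -1.75 ± 0.35 (SE; limma, adjusted p = 0.040), the direction opposite to that of VEGFC. FLT1 (VEGF receptor 1) measured 29.3, 40.7 and 37.7 normalized counts in Vector and 45.7, 59.1 and 51.6 in shEZH2. Its groups did not overlap, but with a log2 fold change of 0.53 ± 0.23 (SE; limma, adjusted p = 0.222) it was not called. KDR (VEGF receptor 2) had 5, 0 and 1 reads in Vector and 3, 2 and 1 in shEZH2. FLT4 (VEGF receptor 3) had 1, 0 and 0 reads in Vector and 9, 4 and 3 in shEZH2, and PGF (placental growth factor) had 18 and 16 reads in all. These last 3 genes were under the minimum of the test.

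Of 117 genes in 10 lists around the axis, 109 were in the table and 79 were tested. Of these, 8 rose, 8 fell and 63 were not called, so 20.3% were called against the 14.6% of all genes, and their median log2 fold change was 0.01 against 0.04. An adjusted p under 0.05 was reached by 7 of them, VEGFD, SEMA3D, CHSY1, P4HA1 and CXCL8 on the lower side and CHSY3 and FGF1 on the higher side. Fits with a library left out hold fewer libraries, and that count fell or rose with each library left out. It was 1 without Vector replicate 1, 22 without Vector replicate 2 and 0 without Vector replicate 3 or any 1 of the shEZH2 libraries (limma), while 7 to 9 genes were called higher and 6 to 11 lower at the unadjusted threshold in these fits.

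Of 9 tested neuropilin partners, 1 rose and 1 fell. SEMA3D, a class 3 semaphorin that binds neuropilins, measured 129, 161 and 114 normalized counts in Vector and 43.8, 76.7 and 51.6 in shEZH2. It fell with a log2 fold change of -1.24 ± 0.26 (SE; limma, adjusted p = 0.042), the same direction as NRP1. PLXNA3, a plexin that transmits semaphorin signals beside the neuropilins, rose by 0.94 ± 0.21 on the log2 scale (limma, adjusted p = 0.051). It shares 11 bases with the neighbouring gene LAGE3.

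Secreted VEGF-C becomes active only after proteolysis, and of 6 tested genes for the maturation of VEGF-C and ANGPTL4 and for lipoprotein lipase, 1 rose and none fell. CCBE1, the scaffold that brings VEGF-C to its protease ADAMTS3, measured 43.9, 27.9 and 46.8 normalized counts in Vector and 88.6, 64.7 and 89.7 in shEZH2. Its groups did not overlap, and its log2 fold change was 1.03 ± 0.27 (SE; limma, adjusted p = 0.078). Of 5 tested angiopoietins, angiopoietin-like genes and their receptors, and of 7 tested PPAR receptors and targets, none was called.

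ESM1 carries a dermatan sulfate chain, and of 19 tested genes of chondroitin and dermatan sulfate synthesis 3 rose and 3 fell, with a median log2 fold change of 0.04. CHSY3, a chondroitin synthase, measured 28.2, 12.8 and 15.3 normalized counts in Vector and 60.0, 59.9 and 45.8 in shEZH2, a log2 fold change of 1.58 ± 0.34 (SE; limma, adjusted p = 0.047). Its paralog CHSY1, expressed at a far higher level, went the other way, with 1652, 1977 and 1627 normalized counts in Vector and 900, 1005 and 994 in shEZH2 and a log2 fold change of -0.85 ± 0.14 (SE; limma, adjusted p = 0.022). The sulfotransferases CHST14, which acts on dermatan sulfate, and CHST11, which acts on chondroitin sulfate, rose by 0.65 ± 0.20 and 0.63 ± 0.15 on the log2 scale. CSGALNACT1 and XYLT1, enzymes of chain initiation, had log2 fold changes of -0.63 ± 0.14 and -0.59 ± 0.22. Adjusted p-values of these last 4 genes were 0.053 to 0.165 (limma). The call of CHST14 was lost without Vector replicate 2 (0.44), and that of CHST11 without Vector replicate 1 or 3 (0.57 each). That of XYLT1 was lost without Vector replicate 2 (-0.38), shEZH2 replicate 1 (-0.49) or shEZH2 replicate 2 (-0.60). The value of -0.60 is past the fold change threshold, so in that fit the call was lost through p.

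VEGFA and ANGPTL4 are known targets of the hypoxia-inducible factors, and of 16 tested genes of oxygen sensing and HIF targets none rose and 1 fell. P4HA1, a subunit of collagen prolyl hydroxylase, measured 676, 604 and 686 normalized counts in Vector and 282, 413 and 346 in shEZH2, a log2 fold change of -0.93 ± 0.17 (SE; limma, adjusted p = 0.031). The median of the list was -0.10.

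Of 11 tested secreted angiogenic and anti-angiogenic factors, 2 rose and 1 fell. FGF1, a fibroblast growth factor, measured 38.7, 50.1 and 28.5 normalized counts in Vector and 87.6, 91.8 and 90.7 in shEZH2 (log2 fold change 1.22 ± 0.24 SE; limma, adjusted p = 0.038). It overlaps the antisense gene SPRY4-AS1, which averaged 25.2 normalized counts. EFNB2, ephrin-B2, rose by 1.47 ± 0.33 on the log2 scale (limma, adjusted p = 0.054). CXCL8, the chemokine interleukin-8, measured 617, 453 and 648 normalized counts in Vector and 273, 338 and 332 in shEZH2 (log2 fold change -0.85 ± 0.18 SE; limma, adjusted p = 0.048).

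ESM1 is counted among tip cell genes, and of 3 other tested genes of that kind PLAUR, the urokinase receptor, rose and ADAMTS9, a matrix protease, fell. Their log2 fold changes were 1.13 ± 0.38 and -0.74 ± 0.27 (SE; limma, adjusted p = 0.137 and 0.159). The call of PLAUR was lost without shEZH2 replicate 1 (1.12) or 3 (0.99). That of ADAMTS9 was lost without Vector replicate 2 (-0.45), shEZH2 replicate 1 (-0.62) or shEZH2 replicate 2 (-0.73). For PLAUR, and for ADAMTS9 without a shEZH2 library, the change stayed past the fold change threshold, so these calls were lost through p. Of the leukocyte integrin that binds ESM1 and its ligand, only ICAM1 was tested, and it was not called.

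**Figure D3:**
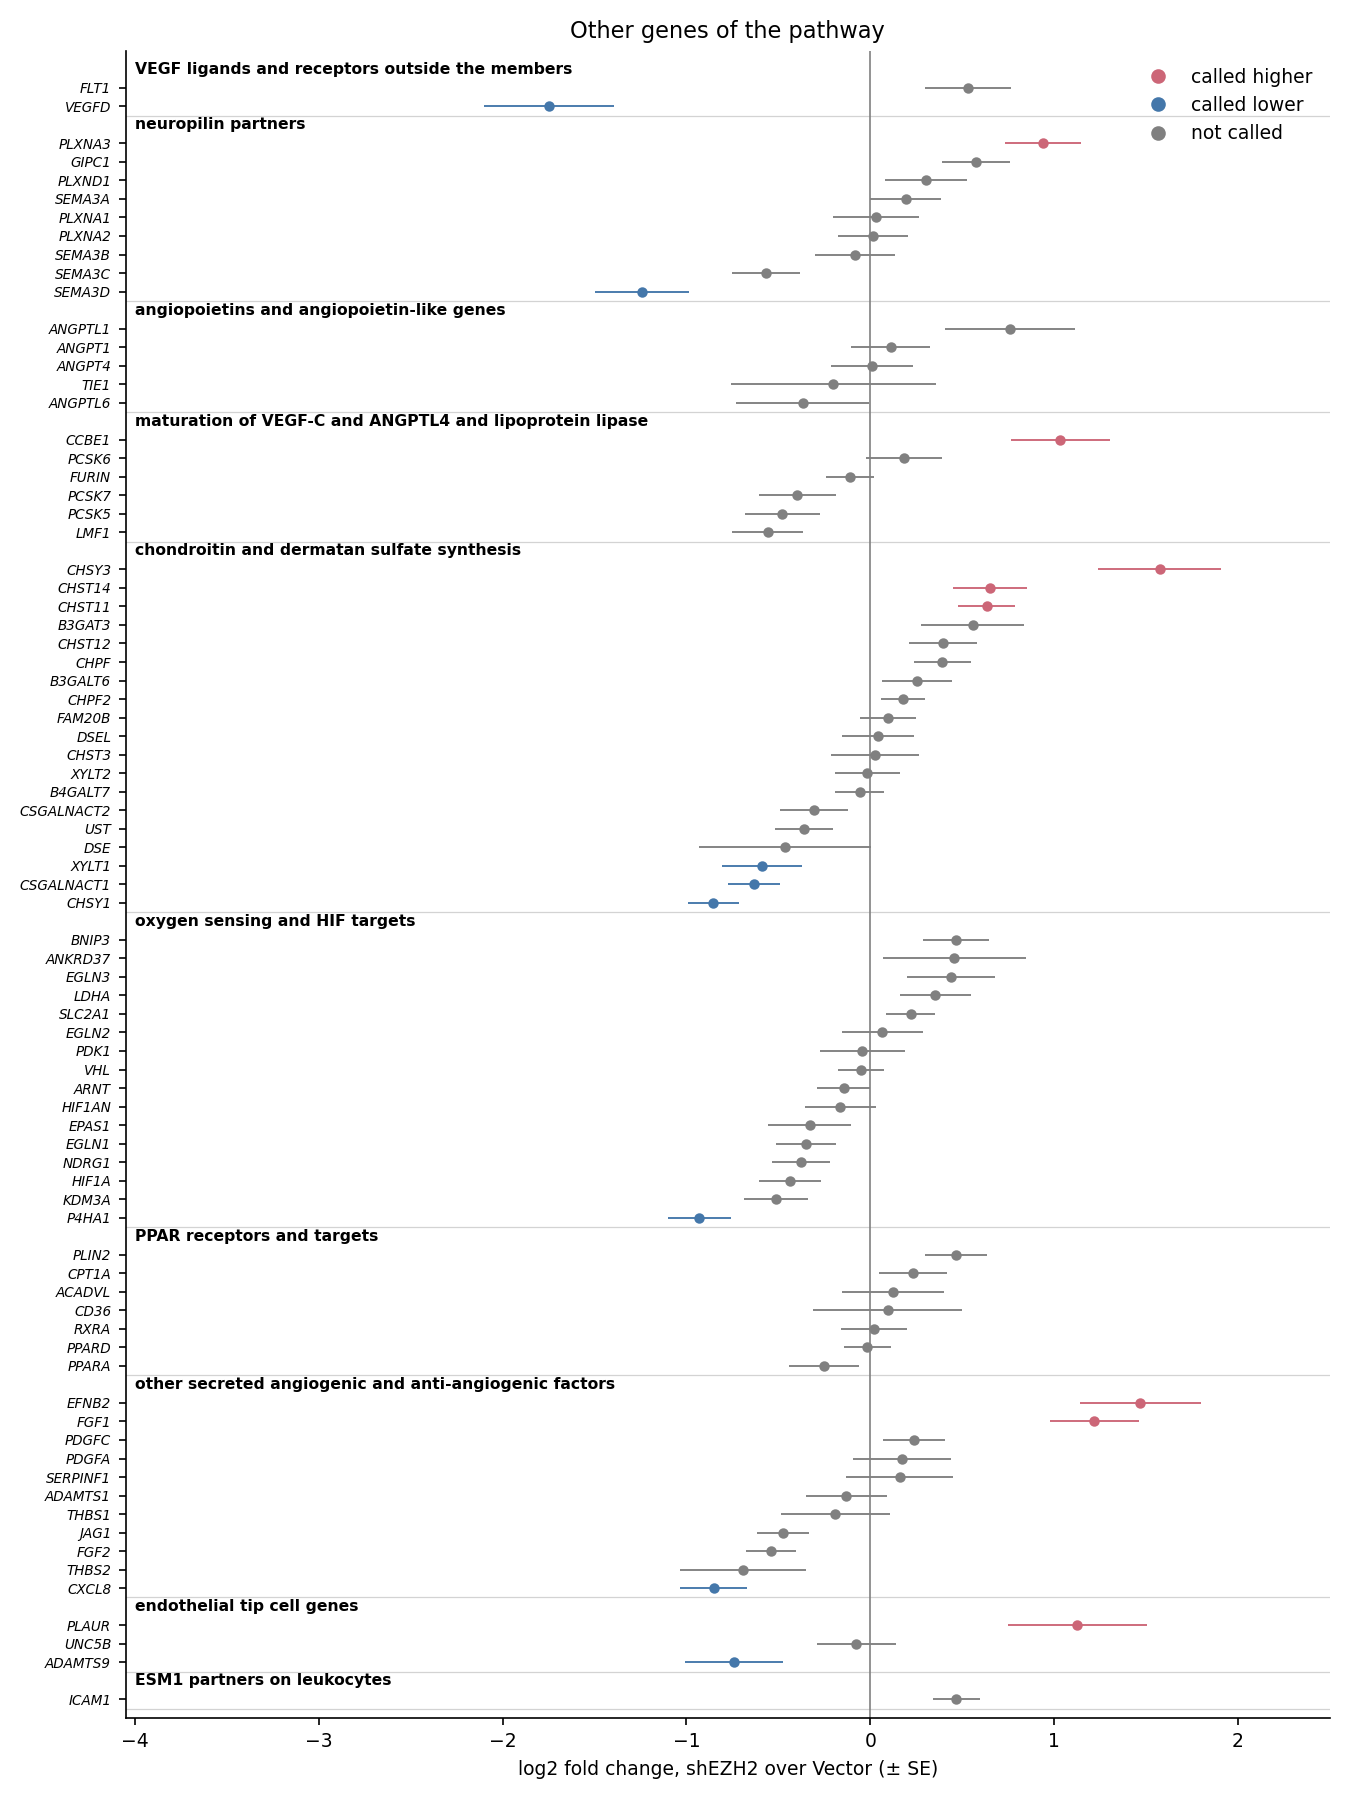
Log2 fold change (shEZH2 over Vector, ± SE) of the 79 tested genes of the 10 lists, 1 gene per row, coloured by whether the gene was called higher, lower or not at all. Of the genes, 8 are called on each side and 63 are not called, and VEGFD (-1.75) and CHSY3 (1.58) lie farthest out.

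The genes with the profile most like that of ESM1 were found among the 11890 genes averaging 50 or more normalized counts, by the root mean square difference between centred log2(normalized count + 1) profiles over the 6 libraries. Of the 5 nearest genes, 4 are given, ANKRD1 (difference 0.333), CTGF (0.421), B3GALT2 (0.746) and SPOCD1 (0.787), against a median of 1.97 over all genes compared. ANKRD1 encodes a nuclear ankyrin repeat protein and CTGF a matricellular growth factor. ANKRD1 measured 37.6, 34.9 and 42.8 normalized counts in Vector and 648, 769 and 686 in shEZH2. CTGF measured 759, 463 and 764 in Vector and 5166, 5805 and 5742 in shEZH2. CTGF shared with ESM1 the low value in Vector replicate 2, which ANKRD1 did not show as clearly. Pearson's r of these 4 genes with ESM1 was 0.938 to 0.999, a description over 6 libraries in which the group difference sets most of the value.

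**Figure D4:**
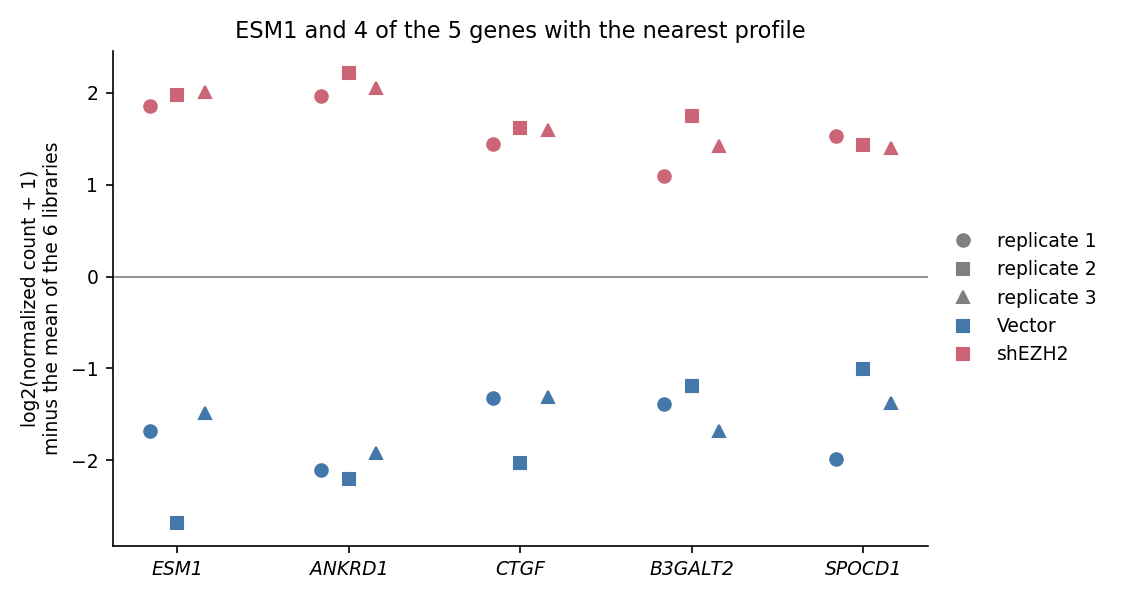
Centred log2(normalized count + 1) of ESM1 and of 4 of the 5 genes with the most similar profile, as points for each library. All 5 genes shown are lower in the Vector libraries and higher in the shEZH2 libraries. ESM1, CTGF and, by a small margin, ANKRD1 are lowest in Vector replicate 2.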

How the data were processed

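Poly-A mRNA of 3 Vector and 3 shEZH2 libraries of HMV-II cells was sequenced on an Illumina NovaSeq. The authors counted reads with featureCounts (v1.5.0-p3) and deposited a signal per gene and library, the read count divided by a DESeq2 (1.20.0) size factor, here called normalized counts. The deposited table also holds the authors' log2 fold changes, p-values and adjusted p-values, which were not used. The processing notes name hg19, but the gene coordinates fit GRCh38, since 47.7% of 20588 genes share an end with a GRCh38 annotation and 0.709% with GRCh37. The aligner is not given in the sources used here, nor is a strand setting. No library column was left out (0).

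The 15251 genes averaging 10 or more were tested on the log2(normalized count + 1) scale, using limma 3.58.1 (R 4.3.3) with a mean-variance trend, no covariate and Benjamini-Hochberg adjustment. The added 1 lowered the log2 fold changes of the low genes ESM1 and VEGFC. They were 3.97 and 1.61 with a pseudocount of 0.1, against 3.90 and 1.58. Dividing by the step of a single read gave whole reads for 100% of values (within 0.01). On these reads DESeq2 1.42.0 called 1045 genes higher and 1321 lower, and edgeR 4.0.16 called 1086 and 1191 with TMM, against 1151 and 1078 by limma. DESeq2 gave log2 fold changes of 3.85 for ESM1 and 1.47 for VEGFC, below those of limma. The fits were tested on simulated data first. Other alternatives were pseudocounts of 0.1 and 5, no minimum or a mean of 50, TMM scaling, a gene length trend removed by loess (span 0.5), a replicate block and each library left out.

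The members and lists were chosen with earlier results of these data known. Genes named are the members, EZH2, the VEGF ligands and receptors, up to 3 called genes per further list and direction, and the 5 nearest profiles to ESM1, of which 1 is not reported here. Promoter sequences came from RefSeq (GRCh38.p14), with entries for 5 of the 7 members.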

Additional observations from a re-analysis of the deposited data

How the results depend on the processing

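The log2 fold changes of ESM1, VEGFC and NRP1 kept their direction and their side of the threshold in all alternatives run, and VEGFA passed it only without Vector replicate 2. With the gene length trend removed, VEGFA moved to -0.17, VEGFB to 0.018 and NRP1 to -1.13. With a library left out, ESM1 ranged from 3.53 to 4.13, VEGFC from 1.16 to 1.82, NRP1 from -1.41 to -1.20, VEGFA from -0.59 to -0.34, VEGFB from 0.16 to 0.34, NRP2 from -0.41 to -0.07 and ANGPTL4 from -0.85 to 0.33. Genes called over the whole table then ranged from 849 to 1525 higher and 773 to 1318 lower, pathway genes from 7 to 9 higher and 6 to 11 lower, and pathway genes with an adjusted p under 0.05 from 0 to 22. An adjusted p as the call left 345 genes higher and 279 lower, with 2 and 5 pathway genes, and a log2 threshold of 1 left 463 and 335, with 5 and 2. Pathway genes called higher numbered 14 with no minimum and 5 with a minimum mean of 50. Those with an adjusted p under 0.05, counted across the alternatives after seeing the data, numbered 2 with no minimum, 15 by DESeq2 and 11 with the length trend removed. Besides the left-out libraries given above, the call of XYLT1 was lost with a pseudocount of 5 (-0.57), and those of XYLT1 (-0.40), CHST14 (0.52) and ADAMTS9 (-0.56) with the length trend removed. The cause of these shifts was not tested. Deviations of same-numbered libraries correlated at 0.28, 0.22 and -0.11, and Vector replicate 3 correlated best with shEZH2 replicate 1 (0.25). With 3 libraries per group, centred on the group mean, such values cannot settle whether the replicate numbers pair the samples. With the replicate block 1322 genes were called higher and 1112 lower, with 8 pathway genes on each side and 2 at an adjusted p. Depth limits ANGPTL4, KDR, FLT4 and PGF, and the Vector levels of ESM1 and VEGFC.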

Other observations

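ADAMTS3, the protease that activates VEGF-C together with CCBE1, was under the minimum of the test and is named here after its values were seen. It had 2, 2 and 9 reads in the Vector libraries and 9, 27 and 16 in the shEZH2 libraries, and its groups overlapped in normalized counts (2.09 to 9.16 against 8.57 to 21.6). LPL, the lipase that ANGPTL4 inhibits, had 2 reads in the Vector libraries and 3 in the shEZH2 libraries.

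Among 8 melanocyte markers, 2 rose and 1 fell. TYRP1, a melanosomal enzyme, measured 283, 257 and 285 normalized counts in Vector and 843, 942 and 876 in shEZH2 (log2 fold change 1.68 ± 0.13 SE; limma, adjusted p = 0.0032). TYR, the rate-limiting enzyme of melanin synthesis, measured 7391, 4388 and 7250 in Vector and 3097, 3194 and 3153 in shEZH2 (-0.97 ± 0.22 SE; limma, adjusted p = 0.053). MLANA, a melanosomal antigen, measured 550, 197 and 541 in Vector and 726, 696 and 720 in shEZH2 (0.88 ± 0.38 SE; limma, adjusted p = 0.214), with Vector replicate 2 the lowest. These 3 genes were named after their values were seen.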
